A study of Mus musculus with 6 samples.

Results

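The genes described here are 37 mouse imprinted genes that lie outside the Dlk1-Dio3 domain. They were taken from a fixed list of symbols and found on the arrays through the RefSeq transcript that each probe names. A named probe was found for 36 of the 37, out of 20972 genes named on the array, and these 36 genes had 61 probes. No probe on the arrays could be named H19, so that gene has no value here. Of the 36, 32 were tested, since the scanner software marked a probe of theirs as well above background in both clones of some line. The other 4, Zim1, Usp29, Mest and Grb10, were not well above background on any array.

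The RNA came from ZHBTc4, mouse embryonic stem cells whose resident Oct4 can be shut off with tetracycline, kept in serum with LIF. Every line used here carried a pCAG-IP plasmid, in which the constitutive CAG promoter drives a POUV protein and a puromycin resistance gene, and every line was grown with tetracycline (2 µg/mL) and puromycin (1 µg/mL, from day 2 after electroporation). In the lines called mOct4 (clones 1 and 2) the plasmid encoded the mouse protein, in LcPOU5F1 (clones 4 and 5) the POU5F1 of the coelacanth, and in LcPOU5F3 (clones 1 and 2) its POU5F3, and the series asks how well each fish protein can stand in for mouse OCT4. Each line is 1 colony picked at day 9 and expanded, and each gave 1 single-colour Agilent array. The p-values rest on the spread between 2 picked clones a group, pooled over the 3 groups, and the 6 arrays limit the precision. Each comparison thus also draws on the clones of the group outside it.

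Imprinted genes are transcribed mainly from the chromosome inherited from the mother or mainly from the one inherited from the father. The choice is set by DNA methylation laid down in the egg or the sperm at imprinting control regions, which often govern several genes at once and can act through a long noncoding RNA such as Kcnq1ot1 or Airn. Many of these genes act in growth of the fetus and the placenta, and cultured embryonic stem cells can lose or gain the methylation. The arrays read RNA from both alleles together, so no value below tells from which parental allele a transcript came. They also read whole cultures, so fewer cells of a type and less RNA per cell cannot be told apart.

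RefSeq promoter windows of the GRCm38.p6 build were matched for 30 of the 37 genes, 49 windows in all, and the 250 bases upstream of each start were read. Those of 5 genes that changed between the lines and have 1 window each are printed, because these genes are among the furthest apart in the data and their upstream sequences differ in CpG content, the dinucleotide that carries the methylation. They run 5′ to 3′ on the strand of the gene, with each CpG in capitals. The Peg3 window is chr7:6730420-6730669 on the minus strand with 8 CpGs, and that of Ascl2 is chr7:142969265-142969514 on the minus strand with 19. The Cd81 window is chr7:143052500-143052749 on the plus strand with 16 CpGs, that of Nnat is chr2:157559828-157560077 on the plus strand with 12, and that of Magel2 is chr7:62376729-62376978 on the plus strand with 7.
Peg3: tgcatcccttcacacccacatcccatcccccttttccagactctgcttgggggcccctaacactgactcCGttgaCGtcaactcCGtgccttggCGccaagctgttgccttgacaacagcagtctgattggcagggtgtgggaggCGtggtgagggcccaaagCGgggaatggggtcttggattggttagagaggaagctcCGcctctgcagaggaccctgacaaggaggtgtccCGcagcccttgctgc
Ascl2: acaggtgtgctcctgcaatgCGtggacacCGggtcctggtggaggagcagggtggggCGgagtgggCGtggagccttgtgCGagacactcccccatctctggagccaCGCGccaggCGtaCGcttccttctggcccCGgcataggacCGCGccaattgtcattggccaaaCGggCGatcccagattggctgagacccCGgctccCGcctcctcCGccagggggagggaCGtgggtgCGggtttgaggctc
Cd81: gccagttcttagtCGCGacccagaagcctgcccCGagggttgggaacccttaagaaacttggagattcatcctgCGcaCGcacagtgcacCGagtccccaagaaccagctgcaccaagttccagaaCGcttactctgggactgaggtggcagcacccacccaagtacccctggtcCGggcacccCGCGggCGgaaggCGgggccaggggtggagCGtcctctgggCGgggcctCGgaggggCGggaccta
Nnat: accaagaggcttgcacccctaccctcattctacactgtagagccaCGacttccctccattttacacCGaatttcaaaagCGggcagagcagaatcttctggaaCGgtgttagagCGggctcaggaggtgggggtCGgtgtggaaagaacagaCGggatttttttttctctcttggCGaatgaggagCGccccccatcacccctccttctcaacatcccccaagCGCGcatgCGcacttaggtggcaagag
Magel2: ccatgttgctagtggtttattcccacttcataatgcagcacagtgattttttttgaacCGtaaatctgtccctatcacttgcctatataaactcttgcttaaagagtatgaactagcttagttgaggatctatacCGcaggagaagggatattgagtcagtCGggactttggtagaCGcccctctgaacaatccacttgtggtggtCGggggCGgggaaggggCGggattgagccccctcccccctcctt
The median number of CpGs was 12 in the 49 windows of imprinted genes and 6 in all 32851 windows of the table, and the median GC content was 60.4% against 52.4%. The octamer ATGCAAAT, the sequence that OCT4 binds, was searched on both strands. It was in 0 of the 49 windows and in 526 (1.6%) of all windows, which says only that these letters are not in these windows. The sequence TGCCGC, which the imprint-keeping zinc finger protein ZFP57 binds when methylated, was in 8 of the 49 windows (16.3%) and in 2850 (8.68%) of all windows, on either strand. Those 8 windows belong to Copg2, Mcts2, Mest, Osbpl5, Plagl1, Zdbf2 and Zim1, and a match is a description of the sequence only. Mest has overlapping windows among them (chr6:30737800-30738049 and chr6:30737803-30738052), so its matches are counted in both. TGCCGC holds a CpG, and these shares are not adjusted for CpG content. The Peg3 and Usp29 windows share 163 bases, since the genes start head to head on opposite strands. Peg3 was well above background on every array and Usp29 on none.

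Levels below are log2 processed signals relative to the 75th percentile of the array, so 0 marks that percentile, and differences are log2 differences ± standard error from limma, with p-values adjusted by Benjamini-Hochberg over all 14595 genes tested. A gene is called when that adjusted p is under 0.05. Levels of different probes are not compared with each other.

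In the LcPOU5F3 clones 8 of the 32 tested imprinted genes were called higher than in the mOct4 clones and 2 lower. The 8 were Osbpl5, Ascl2, Cd81 and Cdkn1c of the Kcnq1 cluster, Peg3, Sgce, Nnat and Gnas, and the 2 were Snrpn and Magel2 of the Snrpn-Ube3a cluster. As shares these are 25% higher and 6.25% lower, beside 11.8% and 11.8% of all genes tested, and 31.2% called in either direction beside 23.6%. Of the 2 called lower, Magel2 passed the filter only through the mOct4 arrays. At an unadjusted p under 0.05 there were 14 of the 32, beside 40.3% of all genes. The median difference was 0.26 over the imprinted genes and -0.09 over all genes. In the LcPOU5F1 clones limma called 0 of the 32 against mOct4, beside 0.0343% of all genes, and 10 of the 32 had an unadjusted p under 0.05, beside 15.5%. Between the coelacanth proteins, 10 of the 32 were called higher in LcPOU5F3 and 2 lower (31.2% and 6.25%, beside 9.98% and 10.5% of all genes, and 37.5% in either direction beside 20.5%), with a median of 0.40 beside -0.21. At an unadjusted p under 0.05 there were 16 of the 32, beside 39.5%. The 3 comparisons share arrays, so their counts are not independent. The same 8 genes that were higher in LcPOU5F3 than in mOct4 were called higher than in LcPOU5F1 as well (25% of the 32), and 0 were lower than in both. Of all genes tested, 1143 (7.83%) were higher than in both and 969 (6.64%) lower, and both comparisons use the same LcPOU5F3 arrays.

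These counts depended on single clones. Without mOct4 clone 1 limma called 0 of the 32 in LcPOU5F3 against mOct4, with 10 at an unadjusted p under 0.05, and without mOct4 clone 2 it also called 0, with 10 unadjusted. Over all genes the calls went from 3438 to 35 and 41. Without LcPOU5F3 clone 1 the count was 16, and 5109 (35.0%) over all genes. For LcPOU5F3 against LcPOU5F1 the count of 12 became 4 without mOct4 clone 1, without mOct4 clone 2 or without LcPOU5F1 clone 4, and 2, Ascl2 and Nnat, without LcPOU5F1 clone 5. Over all genes the calls in these fits went from 2987 to 498, 498, 685 and 487. Fitted on the 4 arrays of those lines alone, only Ascl2, Nnat, Osbpl5 and Peg3 were called (beside 3.41% of all genes). With no filter on dim probes only Ascl2, Nnat, Osbpl5, Peg3, Peg10 and Sgce were called (beside 4.57%).

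The clones of 2 groups did not overlap for 21 of the 32 genes in LcPOU5F3 against mOct4 (65.6%, beside 68.4% of all genes), for 22 in LcPOU5F1 against mOct4 (68.8%, beside 60.6%) and for 21 in LcPOU5F3 against LcPOU5F1 (65.6%, beside 65.4%). These shares lie near those of all genes in the comparisons with LcPOU5F3. The clones of 1 line varied more for imprinted genes than for all genes. For the imprinted genes the median standard deviation was 0.399 among LcPOU5F3 clones, 0.188 among LcPOU5F1 clones and 0.154 among mOct4 clones, and for all genes it was 0.232, 0.151 and 0.107. This is a description, with no test.

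**Figure D1:**
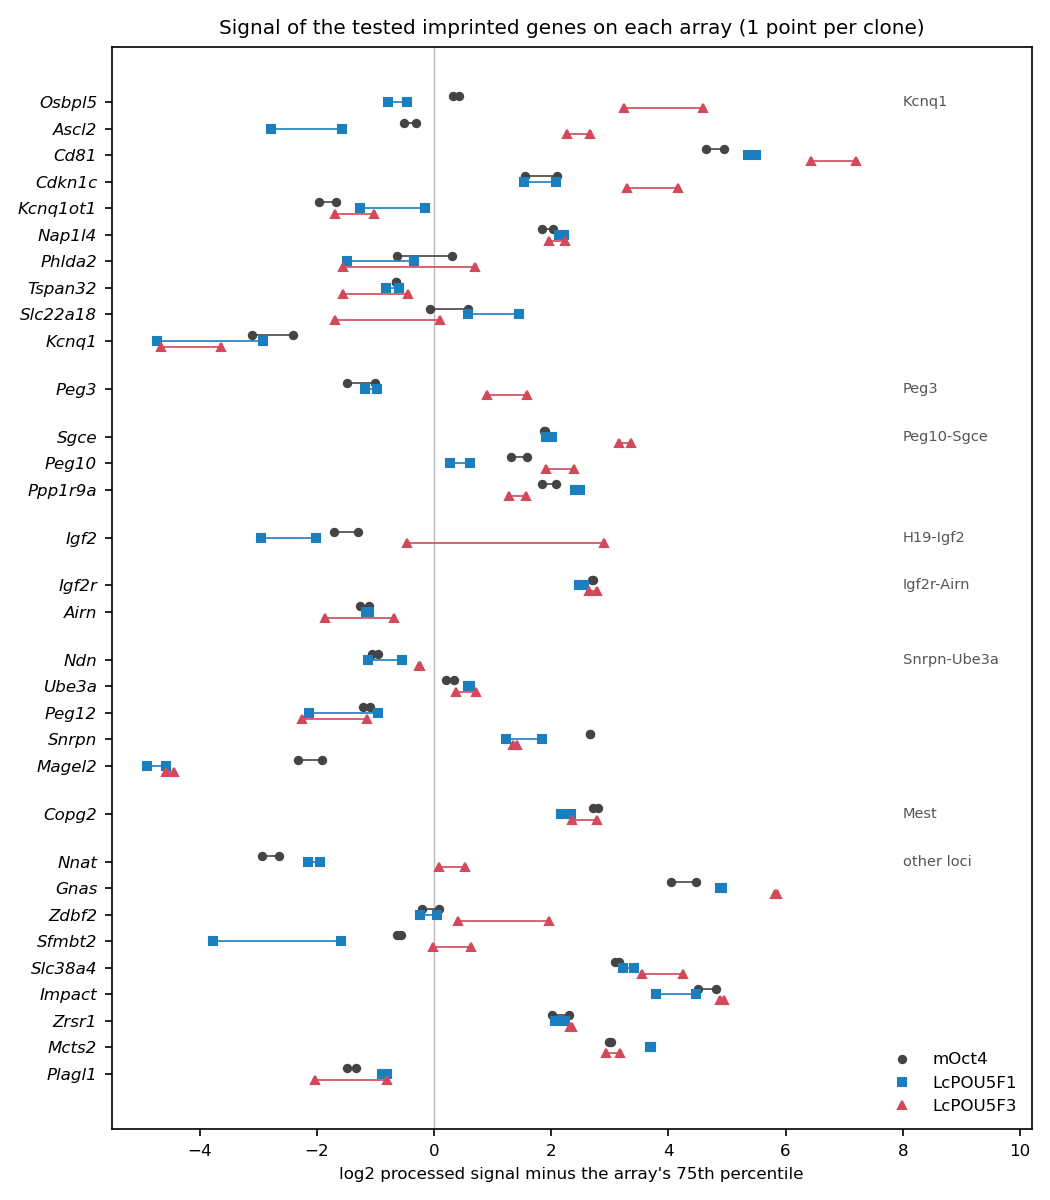
Level of each tested imprinted gene on each array (log2 relative to the 75th percentile of the array), with 1 point per clone, coloured by the rescuing protein. Osbpl5, Ascl2, Peg3 and Nnat lie apart in both LcPOU5F3 clones, and Magel2 is high in both mOct4 clones.

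**Figure D2:**
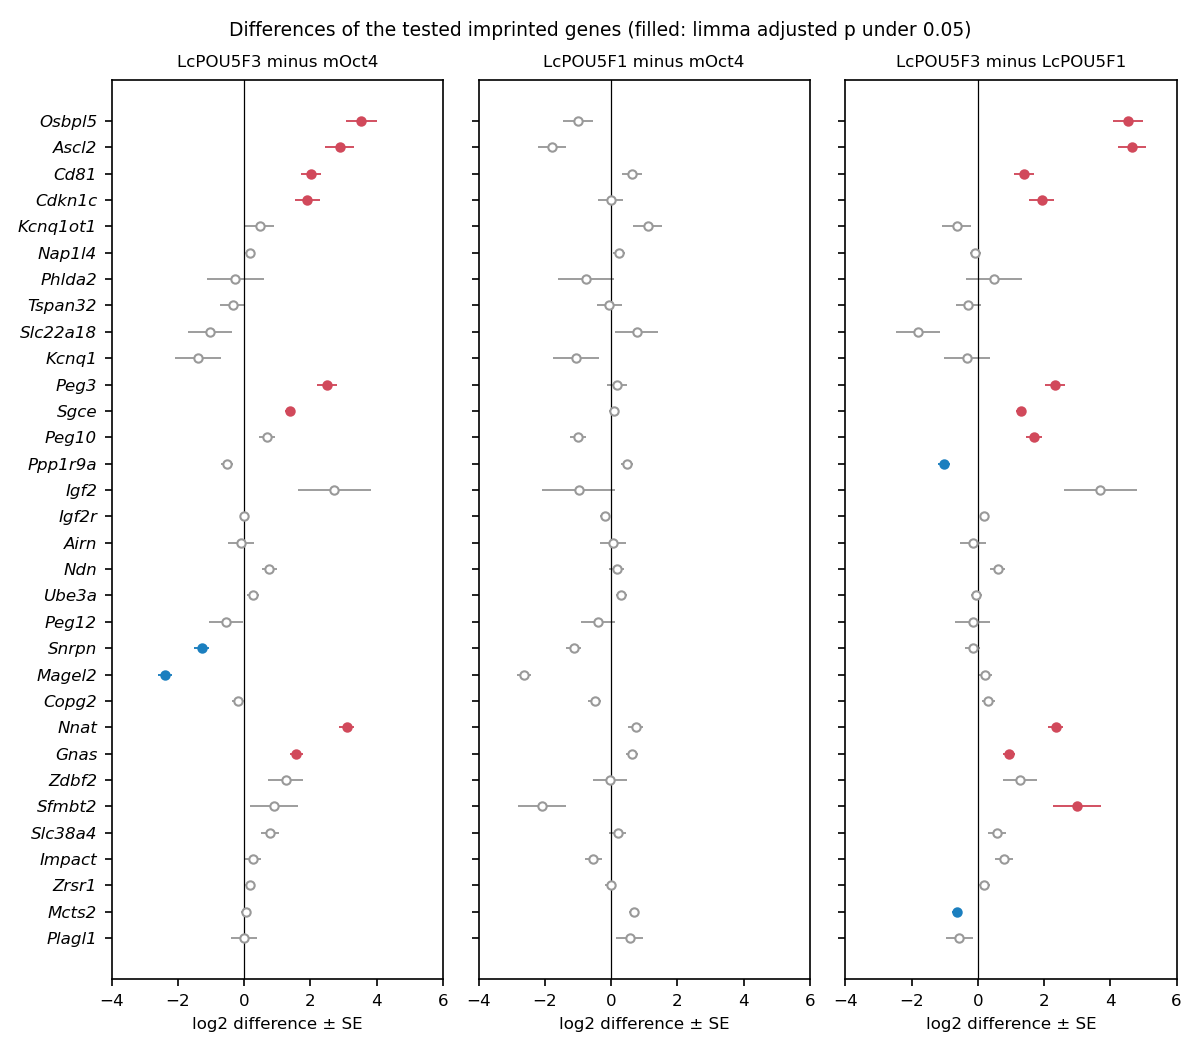
Log2 differences ± standard error of the 32 tested imprinted genes in the comparisons of the lines, with filled points where limma's adjusted p is under 0.05. Against mOct4, LcPOU5F3 has 8 filled points above 0 and 2 below, and LcPOU5F1 has 0.

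Of the 8 genes called higher in LcPOU5F3 than in mOct4, 4 lie in the Kcnq1 cluster on distal chromosome 7. All 10 listed genes of the cluster were tested, and 4 were called higher in LcPOU5F3 and 0 lower, against mOct4 and against LcPOU5F1 alike. That is 40% higher, beside 11.8% of all genes against mOct4 and 9.98% against LcPOU5F1, in a cluster of 10 genes. All 4 are listed as maternally expressed, and the allele that gave these transcripts was not measured. Osbpl5, which encodes a lipid transfer protein of membrane contact sites, stood at 0.33 and 0.43 in the mOct4 clones, at -0.46 and -0.79 in the LcPOU5F1 clones and at 3.24 and 4.60 in the LcPOU5F3 clones. Both LcPOU5F3 clones were far above the other 4. Osbpl5 was 11.6-fold higher in LcPOU5F3 than in mOct4 (3.54 ± 0.46, adjusted p = 0.011) and 23.3-fold higher than in LcPOU5F1 (4.54 ± 0.46, adjusted p = 0.0076).

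Ascl2 encodes a basic helix-loop-helix factor needed for the trophoblast lineage of the placenta. It stood at -0.31 and -0.51 in mOct4, at -1.58 and -2.79 in LcPOU5F1, where 1 of the 2 arrays was well above background, and at 2.67 and 2.26 in LcPOU5F3. The groups did not overlap, with LcPOU5F3 highest and LcPOU5F1 lowest. Ascl2 was 7.35-fold higher in LcPOU5F3 than in mOct4 (2.88 ± 0.42, adjusted p = 0.014) and 25.0-fold higher than in LcPOU5F1 (4.65 ± 0.42, adjusted p = 0.0067). With dim signals set to a common floor, which raises the LcPOU5F1 clone below background, the latter difference was 4.47 and was still called. LcPOU5F1 against mOct4 gave -1.77 ± 0.42 (adjusted p = 0.20), which was not called.

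Cd81 encodes a tetraspanin of the cell surface, and Cdkn1c the cyclin-dependent kinase inhibitor p57, which restrains growth. Cd81 stood at 4.96 and 4.64 in mOct4, at 5.36 and 5.50 in LcPOU5F1 and at 6.43 and 7.20 in LcPOU5F3. It was 4.04-fold higher in LcPOU5F3 than in mOct4 (2.02 ± 0.29, adjusted p = 0.014) and 2.61-fold higher than in LcPOU5F1 (1.38 ± 0.29, adjusted p = 0.034). Cdkn1c stood at 2.09 and 1.56 in mOct4, at 2.08 and 1.54 in LcPOU5F1 and at 4.17 and 3.29 in LcPOU5F3. The mOct4 and LcPOU5F1 clones covered the same range and the LcPOU5F3 clones lay above it. Cdkn1c was 3.75-fold higher in LcPOU5F3 than in mOct4 (1.91 ± 0.39, adjusted p = 0.027) and 3.79-fold higher than in LcPOU5F1 (1.92 ± 0.39, adjusted p = 0.030). Against mOct4, Cdkn1c was not called when fitted on the 4 arrays of these lines alone or with no filter on dim probes. Against LcPOU5F1, neither Cd81 nor Cdkn1c was called on the 4 arrays compared alone or with no filter.

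Kcnq1ot1, the paternally expressed noncoding RNA that silences the cluster in cis, was not called. It stood at -1.67 and -1.97 in mOct4, at -1.27 and -0.15 in LcPOU5F1 and at -1.69 and -1.02 in LcPOU5F3. The LcPOU5F3 clones overlapped both other groups, with a difference of 0.46 ± 0.44 from mOct4 (adjusted p = 0.47). Of the other genes of the cluster, Phlda2, which restrains placental growth, Slc22a18, a transporter gene, Kcnq1, a potassium channel gene, Tspan32, another tetraspanin gene, and Nap1l4, a histone chaperone gene, were not called in any of the 3 comparisons. Phlda2 and Slc22a18 varied within the LcPOU5F3 clones, from 0.70 to -1.56 and from 0.10 to -1.68. Kcnq1 passed the filter only through the mOct4 arrays, with 0 of 2 LcPOU5F1 arrays and 1 of 2 LcPOU5F3 arrays well above background.

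The neighbouring H19-Igf2 cluster gave values for Igf2 alone, which encodes a fetal growth factor and is expressed from the paternal allele. Igf2 stood at -1.30 and -1.71 in mOct4, at -2.02 and -2.95 in LcPOU5F1, with 1 of those 2 arrays well above background, and at 2.89 and -0.47 in LcPOU5F3. The groups did not overlap, but the LcPOU5F3 clones were far from each other. The difference from mOct4 was 2.72 ± 1.10 (adjusted p = 0.13) and that from LcPOU5F1 3.70 ± 1.10 (adjusted p = 0.071), and neither was called. Igf2r, the receptor that takes IGF2 to the lysosome, differed little between any lines. It stood at 2.72 and 2.69 in mOct4, at 2.47 and 2.56 in LcPOU5F1 and at 2.77 and 2.64 in LcPOU5F3. The difference of LcPOU5F3 from LcPOU5F1 was 0.19 ± 0.14 (adjusted p = 0.35). Airn, the noncoding RNA that silences Igf2r on the paternal chromosome, lay between -0.68 and -1.86 on all 6 arrays and was not called. Grb10, which encodes an adaptor that dampens insulin and IGF receptors, was below the filter.

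**Figure D3:**
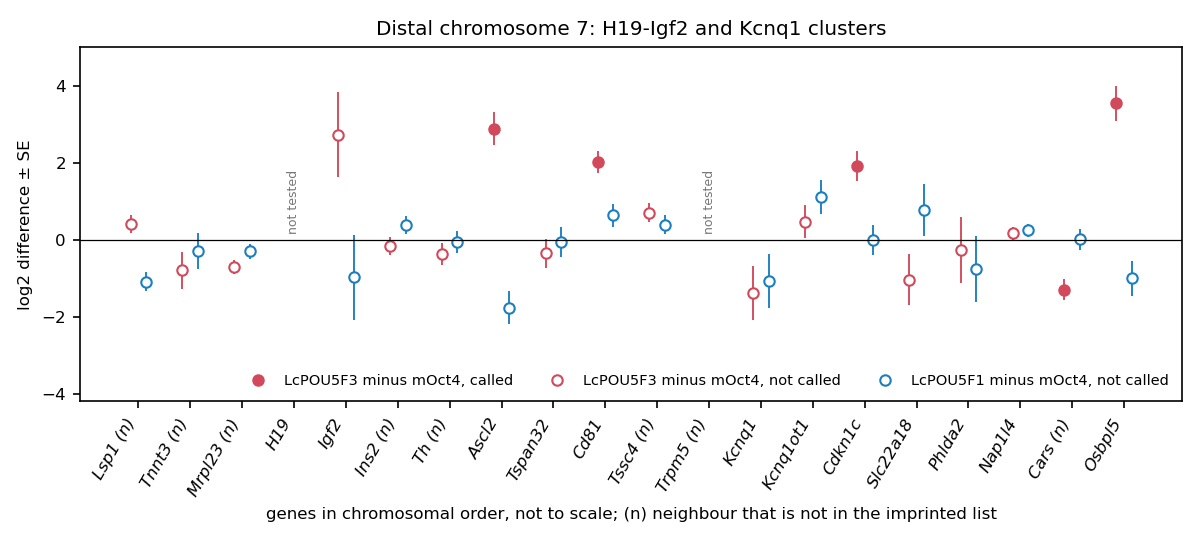
Log2 differences ± standard error from mOct4 of the genes of distal chromosome 7 in chromosomal order, not to scale, for LcPOU5F3 and LcPOU5F1, with filled points where limma's adjusted p is under 0.05 and neighbours outside the list marked (n). The 4 filled points above 0 are Ascl2, Cd81, Cdkn1c and Osbpl5, with genes that were not called between them.

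In the Peg3 cluster of proximal chromosome 7 only Peg3 was tested, a paternally expressed gene for a zinc finger protein. Peg3 stood at -1.01 and -1.48 in mOct4, at -0.98 and -1.17 in LcPOU5F1 and at 1.59 and 0.90 in LcPOU5F3. The mOct4 and LcPOU5F1 clones overlapped and the LcPOU5F3 clones were above them. Peg3 was 5.63-fold higher in LcPOU5F3 than in mOct4 (2.49 ± 0.30, adjusted p = 0.0097) and 5.01-fold higher than in LcPOU5F1 (2.32 ± 0.30, adjusted p = 0.012). A second Peg3 probe gave 1.82 and 1.13 for these differences. Zim1, a maternally expressed zinc finger gene, and Usp29, a paternally expressed deubiquitinase gene, were below the filter.

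The Peg10-Sgce cluster of chromosome 6 had all 3 listed genes tested. Sgce, which encodes epsilon-sarcoglycan and is paternally expressed, stood at 1.87 and 1.89 in mOct4, at 1.90 and 2.02 in LcPOU5F1 and at 3.17 and 3.37 in LcPOU5F3. These clones were close within each line, and Sgce was 2.62-fold higher in LcPOU5F3 than in mOct4 (1.39 ± 0.15, adjusted p = 0.0084) and 2.47-fold higher than in LcPOU5F1 (1.30 ± 0.15, adjusted p = 0.010). Peg10, a retrotransposon-derived gene needed for the placenta that starts head to head with Sgce, stood at 1.31 and 1.59 in mOct4, at 0.61 and 0.27 in LcPOU5F1 and at 1.91 and 2.39 in LcPOU5F3. The order LcPOU5F1, mOct4, LcPOU5F3 held without overlap. Peg10 was called between LcPOU5F3 and LcPOU5F1 (3.26-fold higher, 1.70 ± 0.24, adjusted p = 0.015) but not against mOct4 (0.70 ± 0.24, adjusted p = 0.095), where a second probe gave -0.01. Ppp1r9a, the maternally expressed gene of the actin-binding protein neurabin, ran the other way, at 2.08 and 1.84 in mOct4, at 2.49 and 2.40 in LcPOU5F1 and at 1.28 and 1.58 in LcPOU5F3. It was 2.02-fold lower in LcPOU5F3 than in LcPOU5F1 (-1.02 ± 0.18, adjusted p = 0.023) and was not called against mOct4 (-0.53 ± 0.18, adjusted p = 0.088). The first of these calls was lost with centring on the median, with no filter on dim probes and on the 4 arrays compared alone.

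The Snrpn-Ube3a cluster, the mouse counterpart of the Prader-Willi and Angelman region, was the cluster with calls below mOct4. Of its 5 tested genes, 2 were called lower in LcPOU5F3 and 0 higher (40% lower, beside 11.8% of all genes). Of these 2, Magel2 passed the filter only through the mOct4 arrays and was not called with dim signals set to a common floor. Snrpn, which encodes a protein of spliceosomal particles, stood at 2.65 and 2.67 in mOct4, at 1.84 and 1.23 in LcPOU5F1 and at 1.41 and 1.34 in LcPOU5F3. All 4 clones with a coelacanth protein lay below both mOct4 clones. Snrpn was 2.44-fold lower in LcPOU5F3 (-1.28 ± 0.23, adjusted p = 0.021), and LcPOU5F1 against mOct4 gave -1.13 ± 0.23 (adjusted p = 0.16). The coelacanth lines differed from each other by -0.16 ± 0.23 (adjusted p = 0.63), and a second Snrpn probe gave -1.42 and -1.10 against mOct4. With no filter on dim probes Snrpn was not called.

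Magel2, a paternally expressed gene of the MAGE family that encodes a ubiquitin ligase partner, was well above background in both mOct4 clones, at -2.32 and -1.91, and in no other clone. It was measured at -4.90 and -4.57 in LcPOU5F1 and at -4.58 and -4.44 in LcPOU5F3. Where no array of a group is well above background the fold is only a bound, which sets the brighter group's mean against the higher of the lowest signal well above background and the probe's own signal on each dim array. The adjusted p beside a bound is that of the measured difference. On that scale Magel2 was at least 2.11-fold lower in LcPOU5F3 (measured -2.39 ± 0.22, adjusted p = 0.0062) and at least 1.54-fold lower in LcPOU5F1 (measured -2.62 ± 0.22, adjusted p = 0.087, not called). The size rests on the floor, since with the dim signals of all arrays set to 1 common floor the difference in LcPOU5F3 was -0.33 and was not called (adjusted p = 0.206). Over all 16 alternatives it ran from -2.60 to -0.33, with adjusted p from 3.81e-06 to 0.206. Of the other genes of the cluster, Ndn, which encodes necdin, gave 0.76 ± 0.22 in LcPOU5F3 against mOct4 (adjusted p = 0.065), and Peg12 and the maternally expressed ubiquitin ligase gene Ube3a gave -0.55 ± 0.52 and 0.27 ± 0.17, none of them called. Mkrn3, a zinc finger gene of the same cluster that is not in the list, was called lower in LcPOU5F3 (-0.89 ± 0.18, adjusted p = 0.028), and is named after its value was seen.

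Among the imprinted genes outside larger clusters, Nnat and Gnas were called in both comparisons with LcPOU5F3. Nnat, which encodes the small membrane protein neuronatin and is paternally expressed, stood at -2.65 and -2.94 in mOct4, at -1.94 and -2.15 in LcPOU5F1 and at 0.08 and 0.53 in LcPOU5F3. The clones of the 3 lines did not overlap, and both Nnat probes gave the same direction in every comparison. Nnat was 8.57-fold higher in LcPOU5F3 than in mOct4 (3.10 ± 0.22, adjusted p = 0.0046) and 5.11-fold higher than in LcPOU5F1 (2.35 ± 0.22, adjusted p = 0.0069). Gnas, the gene of the stimulatory G protein alpha subunit, is maternal, paternal or biallelic by transcript, and the probe does not separate these here. It stood at 4.47 and 4.05 in mOct4, at 4.88 and 4.92 in LcPOU5F1 and at 5.82 and 5.86 in LcPOU5F3. Gnas was 2.99-fold higher in LcPOU5F3 than in mOct4 (1.58 ± 0.19, adjusted p = 0.0097) and 1.92-fold higher than in LcPOU5F1 (0.94 ± 0.19, adjusted p = 0.030). A second kept Gnas probe was well above background on 0 of 2 mOct4 arrays and 1 of 2 LcPOU5F1 arrays, so its differences are not given. The call against LcPOU5F1 was lost with the median over both probes, with no filter on dim probes and on the 4 arrays compared alone.

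Sfmbt2, a Polycomb-related gene with a role in extraembryonic tissue, stood at -0.63 and -0.57 in mOct4, at -1.58 and -3.78 in LcPOU5F1, where 1 of the 2 arrays was well above background, and at 0.63 and -0.02 in LcPOU5F3. It was called higher in LcPOU5F3 than in LcPOU5F1 (7.92-fold, 2.99 ± 0.72, adjusted p = 0.046), a fold that includes the clone below background. With dim signals set to a common floor the difference was 2.32 and was still called. The call was lost with the median over the kept probes, of which the second was likewise well above background on 1 of the 2 LcPOU5F1 arrays. That call was also lost with no filter on dim probes and on the 4 arrays compared alone. Mcts2, a retrocopy of Mcts1 that lies in an intron of H13, stood at 3.02 and 2.99 in mOct4, at 3.70 and 3.69 in LcPOU5F1 and at 3.17 and 2.94 in LcPOU5F3. It was 1.56-fold lower in LcPOU5F3 than in LcPOU5F1 (-0.64 ± 0.15, adjusted p = 0.042). The call was lost after quantile normalization, after centring on the median, with no filter on dim probes and on the 4 arrays compared alone. The Mcts2 probe could also read the parent gene Mcts1. The same limit applies to Zrsr1, a retrocopy of Zrsr2, which was not called. In the Mest cluster Mest, a paternally expressed hydrolase gene, was below the filter with all 3 of its probes, and Copg2, a coatomer gene, gave -0.18 ± 0.20 in LcPOU5F3 against mOct4 (adjusted p = 0.53).

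Zdbf2, Impact, Slc38a4 and Plagl1 were not called in any comparison. Of these, Zdbf2 differed most between the LcPOU5F3 clones, at 0.41 and 1.96. Impact, a gene of a translational regulator, had a second probe below background in both LcPOU5F1 clones and in 1 LcPOU5F3 clone. For LcPOU5F3 against mOct4, 11 imprinted genes had more than 1 probe well above background on all 4 arrays. Their probes gave the same sign in 8, and the exceptions were Nap1l4, Peg10 and Plagl1. Over the 22 genes not called in LcPOU5F3 against mOct4, differences ran from -1.39 to 2.72 with a median of 0.11, and the smallest adjusted p was 0.065. Over the 32 not called in LcPOU5F1 against mOct4 they ran from -2.62 to 1.11.

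By the parental allele they are listed under, 13 maternally expressed and 18 paternally expressed genes were tested, with Gnas apart. In LcPOU5F3 against mOct4, 4 of the 13 maternally expressed genes were called higher (30.8%, beside 11.8% of all genes) and 0 lower, with a median difference of 0.0017, and all 4 belong to the Kcnq1 cluster. Of the 18 paternally expressed genes 3 were called higher (Peg3, Sgce and Nnat, 16.7%) and 2 lower (Snrpn and Magel2, 11.1%, beside 11.8%), with a median difference of 0.58. Magel2 passed the filter only through the mOct4 arrays. Against LcPOU5F1 the counts were 4 higher and 1 lower for maternally expressed genes (30.8% and 7.69%) and 5 higher and 1 lower for paternally expressed genes (27.8% and 5.56%), beside 9.98% and 10.5% of all genes. Both classes held calls, and no test of a difference between the classes was made.

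The genes that keep or erase imprints were read from a separate list of 24 genes, all tested, of which 1 was called higher and 6 lower in LcPOU5F3 against mOct4 (4.17% and 25%, beside 11.8% and 11.8% of all genes). The 1 called higher, Dppa3, passed the filter only through the LcPOU5F3 arrays. Limma called 0 of the 24 in LcPOU5F1 against mOct4 (beside 0.0343% of all genes), with 6 at an unadjusted p under 0.05 (beside 15.5%). Dnmt3l, the cofactor of the de novo DNA methyltransferases, stood at 4.61 and 4.60 in mOct4, at 1.00 and -0.70 in LcPOU5F1 and at 1.03 and -0.48 in LcPOU5F3. All 4 clones with a coelacanth protein lay far below mOct4, and Dnmt3l was 20.1-fold lower in LcPOU5F3 (-4.33 ± 0.72, adjusted p = 0.018), while LcPOU5F1 gave -4.45 ± 0.72 (adjusted p = 0.13). Tet1, which oxidises 5-methylcytosine, was 4.99-fold lower in LcPOU5F3 than in mOct4 (-2.32 ± 0.35, adjusted p = 0.015), and the chromatin remodeller gene Hells 1.98-fold lower (-0.99 ± 0.15, adjusted p = 0.016). Trim28, the corepressor that ZFP57 recruits to methylated imprinting control regions, stood at 6.68 and 6.68 in mOct4, at 6.90 and 6.90 in LcPOU5F1 and at 5.89 and 5.59 in LcPOU5F3. It was 1.92-fold lower in LcPOU5F3 than in mOct4 (-0.94 ± 0.16, adjusted p = 0.020). Uhrf1, which brings DNMT1 to replicated DNA, was 1.66-fold lower (-0.74 ± 0.15, adjusted p = 0.029).

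Dppa3, whose protein shields methylation in the zygote, was the 1 gene of this list called higher in LcPOU5F3 than in mOct4. It stood at -3.15 and -3.60 in mOct4, where 1 clone was well above background, and at -0.66 and -0.23 in LcPOU5F3. Dppa3 was 7.61-fold higher than in mOct4 (2.93 ± 0.30, adjusted p = 0.0073), a fold that includes the mOct4 clone not well above background. It passed the filter only through the LcPOU5F3 arrays. Against LcPOU5F1, where it was not well above background, it was at least 4.91-fold higher (adjusted p = 0.0056). Zfp57 stood at 1.57 and 1.52 in mOct4, at 2.62 and 2.45 in LcPOU5F1 and at 1.32 and 0.15 in LcPOU5F3. It was 3.47-fold lower in LcPOU5F3 than in LcPOU5F1 (-1.79 ± 0.39, adjusted p = 0.036) and not called against mOct4 (-0.81 ± 0.39, adjusted p = 0.19). Dnmt1, the maintenance methyltransferase gene, was 1.52-fold lower in LcPOU5F3 than in LcPOU5F1 (-0.61 ± 0.14, adjusted p = 0.044) and not called against mOct4 (-0.29 ± 0.14, adjusted p = 0.20). Over the 24 genes, 3 were called higher and 7 lower in LcPOU5F3 against LcPOU5F1 (12.5% and 29.2%, beside 9.98% and 10.5%). Besides Dppa3, those higher were the de novo methyltransferase genes Dnmt3a (1.20 ± 0.29, adjusted p = 0.047) and Dnmt3b (0.91 ± 0.22, adjusted p = 0.045). Neither was called against mOct4, and both are named after their values were seen. DNA methylation itself was not measured, and whether these values bear on those of the imprinted genes was not tested.

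**Figure D4:**
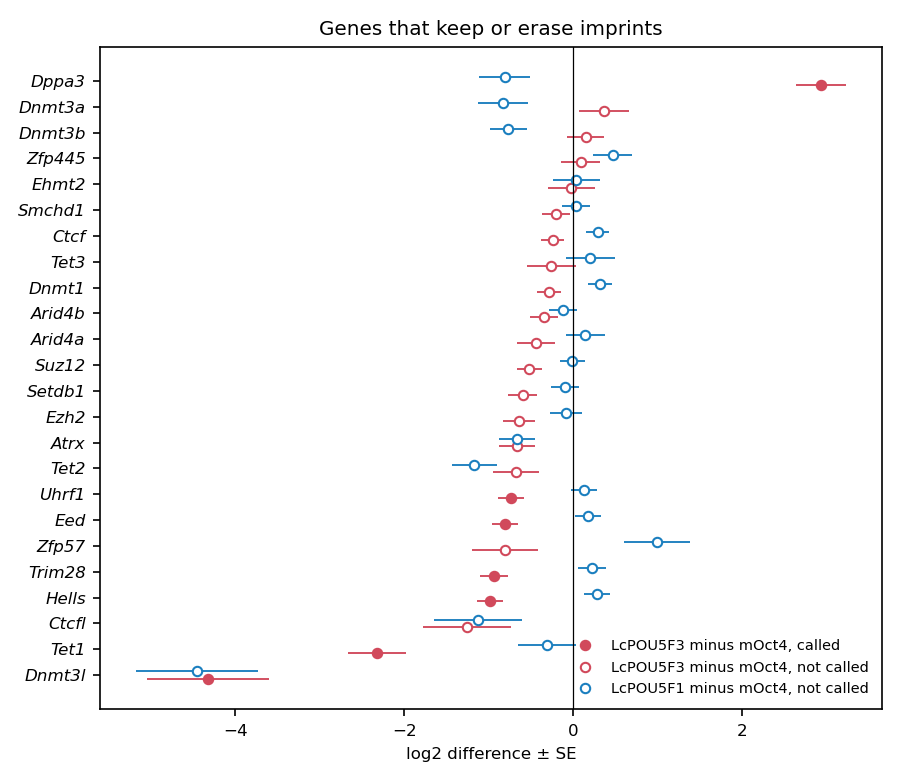
Log2 differences ± standard error of 24 genes that keep or erase imprints, with filled points where limma's adjusted p is under 0.05. Dnmt3l lies lowest in both coelacanth lines against mOct4, and Dppa3 is the filled point above 0 in LcPOU5F3 against mOct4.

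Genes that lie in or beside the same clusters but are not in the list were read as well, whether or not they are imprinted themselves. Of 30, 22 were tested. In LcPOU5F3 against mOct4, 4 were called higher and 4 lower (18.2% each, beside 11.8% and 11.8% of all genes), with a median of -0.16. Against LcPOU5F1, 5 were called higher and 3 lower (22.7% and 13.6%, beside 9.98% and 10.5%). Among those called higher, Gpr1 and Cpa4 passed the filter only through the LcPOU5F3 arrays. Gpr1, beside Zdbf2, was well above background only in LcPOU5F3 and was at least 3.18-fold higher than in mOct4 (adjusted p = 0.0065). Cpa4, a carboxypeptidase gene beside Mest, was likewise at least 9.17-fold higher (adjusted p = 0.017), and Ddc, which encodes aromatic amino acid decarboxylase beside Grb10, was 2.64-fold lower (-1.40 ± 0.21, adjusted p = 0.015). H13, the host gene of Mcts2, was higher in LcPOU5F3 than in LcPOU5F1 (1.09 ± 0.21, adjusted p = 0.028), where Mcts2 was lower. Lsp1, beyond H19, was also higher there (1.50 ± 0.24, adjusted p = 0.020), and so was Gpr1, at least 1.60-fold (adjusted p = 0.018). On distal chromosome 7, Cars lies between Nap1l4 and Osbpl5 and was 2.47-fold lower in LcPOU5F3 than in mOct4 (-1.30 ± 0.27, adjusted p = 0.029), chosen for mention after its value was seen.

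Some markers of other cell types moved with the LcPOU5F3 line. The summed linear level of 10 trophectoderm markers, relative to the 75th percentile, was 35.7 and 36.6 in mOct4, 33.0 and 24.7 in LcPOU5F1 and 510 and 535 in LcPOU5F3. The simple keratin genes Krt18 and Krt8 made up 90.3% and 90.9% of the LcPOU5F3 sums, and without them the sums were 49.6 and 48.5, against 25.0 and 26.6 in mOct4 and at most 17.0 in LcPOU5F1. Of the 9 tested, 6 were called higher in LcPOU5F3 against mOct4 (66.7%, beside 11.8% of all genes) and 1, Eomes, lower (11.1%, beside 11.8%). Krt7, 1 of the 6, passed the filter only through the LcPOU5F3 arrays. Tfap2c and Hand1 were not called and Elf5 was not well above background on any array. Ascl2, Cdkn1c and Sfmbt2 are also expressed in the trophoblast lineage, and Phlda2 and Peg10 act in the placenta. Of these genes, limma called Ascl2 and Cdkn1c higher in LcPOU5F3 than in mOct4. It did not call Sfmbt2 (0.90, adjusted p = 0.40), Peg10 (0.70, adjusted p = 0.095) or Phlda2 (-0.27, adjusted p = 0.85) in that comparison. The sum of 10 endoderm markers ran from 8.50 to 9.41 in mOct4, from 10.4 to 12.8 in LcPOU5F1 and from 35.2 to 40.7 in LcPOU5F3, with Pdgfra not well above background. Lamb1 alone made up 93.1% and 91.1% of the LcPOU5F3 sums. Of the 6 endoderm markers tested against mOct4 in LcPOU5F3, Lamb1 and Dab2 were called higher and Amn lower. These are 33.3% and 16.7%, beside 11.8% and 11.8% of all genes. Dab2 passed the filter only through the LcPOU5F3 arrays, and Gata4, Sox17 and Cubn were not called. Gata6, Sox7 and Foxa2 were below the filter. Cubn was well above background only in LcPOU5F1. There it was called at least 5.69-fold higher than in mOct4 (adjusted p = 0.035). In LcPOU5F3 it was at least 3.92-fold lower than in LcPOU5F1 (adjusted p = 0.0055). The sum of 10 mesenchyme markers was 53.5 and 123 in LcPOU5F3 and between 15.6 and 35.4 in the other 4 clones, with Lum not well above background. Tagln and Vim made up 70.0% and 74.4% of the LcPOU5F3 sums. Without Tagln the sums were 26.8 and 65.7 in LcPOU5F3 and between 15.1 and 34.9 in the other 4 clones. Against mOct4, 5 of the 9 tested were called higher (Thy1, Tagln, Acta2, Timp3 and Dcn) and 0 lower. That is 55.6% higher, beside 11.8% of all genes. Dcn passed the filter only through the LcPOU5F3 arrays. Vim (-0.31, adjusted p = 0.77) and the collagen genes Col1a1, Col1a2 and Col3a1 were not called. The sum of 10 naive stem cell markers was 428 and 305 in LcPOU5F3 and between 699 and 895 in the others. Of the 10, 8 were called lower against mOct4 and 0 higher (80% lower, beside 11.8% of all genes). The part of these cell types in the values of the imprinted genes was not tested.

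The share of probes well above background was 57.5% and 57.8% on the mOct4 arrays and between 43.5% and 53.3% on the other 4, and no spot was saturated. The kept Pou5f1 probe read well above background in the mOct4 clones alone, the lines that carry the mouse gene on the plasmid. Slide 2 held mOct4 clone 2 alone and slide 1 the other 5 arrays, so the slide cannot be told apart from that clone.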

How the data were processed

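Total RNA of 6 clones (RNA integrity number 10, per the labels) was read on single-colour Agilent arrays of a design that names the build mm9. Per the file headers, the authors extracted spot intensity with Agilent Feature Extraction 11.0.1.1, and the deposited processed intensity is background-subtracted, linear and not scaled between arrays. Values in the series matrix that was also deposited equal this intensity within a relative difference of 0.00498. The same deposited files flag spots that are saturated, that are outliers or whose signal is well above background.

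After removal of control spots and of spots flagged as outliers, intensities were log2 transformed, each array's 75th percentile over the non-control spots was subtracted, and spots of 1 probe were averaged. Probes were named by matching transcript accessions, without versions, to a RefSeq table of GRCm38.p6, used for names, gene order and promoter windows. A probe was kept where both clones of any line read it well above background, and the brightest kept probe, by its mean over the 6 arrays, stands for its gene. The means of the 3 groups were fitted to 14595 genes by lmFit and eBayes of limma 3.58.1 (R 4.3.3), which left 3 residual degrees of freedom, or 5.16 once moderated. The Benjamini-Hochberg method adjusted the p-values, and those under 0.05 were called. The steps were tested on simulated data.

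The imprinted genes, the other lists and their allele and cluster labels were chosen with earlier results of these data known. Full values are given for genes called in at least 1 comparison and for H19, Igf2, Igf2r, Cdkn1c, Peg3, Snrpn, Mest, Grb10, Peg10 and Kcnq1ot1 whatever their values. From the lists of imprint keepers and of neighbours, the 3 called genes with the smallest adjusted p in each comparison are named, and Zfp57, Trim28, Dnmt1, Uhrf1, Dppa3 and Dnmt3l in any case. Alternatives were normexp background correction, quantile normalization, centring on the median, other filters, the median over kept probes, the 4 arrays compared alone, the series matrix, the slide or the clone number as a block, each array left out, and a common floor on dim signals, which was added after the data were seen. Normexp (offset 50) used the median spot intensity, because the planned mean was not among the columns used here.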

Additional observations from a re-analysis of the deposited data

How the results depend on the processing

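In every alternative run, each called imprinted gene that was in the fit kept its direction. The clones of the compared groups did not overlap for any of these genes, so leaving out an array could not reverse a sign. For LcPOU5F1 against mOct4 there was no called gene to follow. With 2 clones a group the counts changed between runs. For LcPOU5F3 against mOct4, where 10 imprinted genes were called, the slide as a block called 0 (10 at an unadjusted p under 0.05), which equals leaving out mOct4 clone 2. Leaving out each array in turn gave 0 to 16 called genes and medians from 0.21 to 0.46. For LcPOU5F1 against mOct4, where limma called 0, centring on the median called 7 lower with a median of -0.38 (over all genes 703 lower and 47 higher, and the median moved from 0.10 to -0.27). The 4 arrays alone called 1, Magel2, the filter on all 6 arrays gave a median of 0.13, the slide as a block -0.11, and leaving out arrays gave 0 to 1 calls and medians from -0.11 to 0.10. For LcPOU5F3 against LcPOU5F1, where 12 were called, no filter gave 6 and a median of 0.27, and the 4 arrays alone and the slide as a block gave 4 each. Its median was 0.68 after quantile normalization and 0.81 after centring on the median (all genes moved from -0.21 to 0.20), and leaving out arrays gave 2 to 17 calls and medians from 0.35 to 0.48. Over all genes that comparison split into 1456 higher and 1531 lower, into 1772 and 1176 after quantile normalization, and into 1852 and 502 after centring on the median. No filter called 4.57% of all genes in it and the 4 arrays alone 3.41%, where the fit above called 20.5%. The cause of these changes was not tested.

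Only clone numbers 1 and 2 are shared, by mOct4 and LcPOU5F3, and they name separately picked colonies. Same-numbered clones deviated from their group means with r = -0.1 over genes. With 2 clones a group this single value cannot show or exclude a pairing, and the calls above use none. With the clone number as a replicate block, which leaves 1 residual degree of freedom, limma called 0 imprinted genes in LcPOU5F3 against mOct4, and 14 had an unadjusted p under 0.05. Over all 14595 genes it also called 0, with 4404 at an unadjusted p under 0.05.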
